A study of Homo sapiens with 5 samples.

Results

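The alpha and beta globin genes, which encode the protein chains of haemoglobin, were mapped against chromatin immunoprecipitation sequencing (ChIP-seq) intervals from a cell line that does not belong to the red cell lineage. The 10 genes were taken by name: HBZ, HBM, HBA2, HBA1 and HBQ1 of the alpha cluster on chromosome 16, and HBB, HBD, HBG1, HBG2 and HBE1 of the beta cluster on chromosome 11. They are 10 of the 19817 protein-coding genes of the RefSeq table (GRCh38.p14) that were scored. The cells were HT1376, an established human bladder carcinoma line, kept in 250 nM CPI-0209 or in DMSO, the vehicle. The treatment label gives 8 days, and the label on chromatin extraction names both 4 and 8 days. CPI-0209 inhibits EZH2, the enzyme of Polycomb repressive complex 2 that trimethylates histone H3 at lysine 27 (H3K27me3). Antibodies against EZH2 and H3K27me3 gave 4 groups (H3K27me3 DMSO, H3K27me3 CPI-0209, EZH2 DMSO and EZH2 CPI-0209) with 1 library each, and 1 input library was not used here. All groups share the same cell line, and the labels do not say whether the cultures were separate.

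For each library the deposited data are interval positions (hg38) without score, height or read count, so depth is unknown. With 1 library per group no test between DMSO and CPI-0209 was possible, and differences are given as descriptions with no replicate check. Each of the 4 lists runs through the chromosomes from 1 to X and then runs through them a second time. Within a pass the intervals never overlap and lie at least 800 bp apart, and between passes they overlap freely. What the 2 passes stand for was not given in the sources used here, and they are not treated as replicates. Whether they hold different treatment times cannot be told from the labels, so values over both passes may mix times. The passes differed in extent. In the H3K27me3 CPI-0209 list the second pass covered 15.1 Mb, which is 13.3% of the 113.4 Mb of the first. In each of the other 3 lists the second pass was the longer, at 154.4% of the first for H3K27me3 DMSO, 235.7% for EZH2 DMSO, and 204.7 Mb against 136.5 Mb for EZH2 CPI-0209. Values below use both passes together. Values of single passes are given for some results only, mainly at the alpha cluster, and calls at the lists of other genes were not split by pass. A call is a yes or no decision on a population of cells, so a mark in fewer cells and a weaker mark in each cell cannot be told apart.

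Haemoglobin is built from alpha-type and beta-type chains. By rising coordinate the alpha cluster runs from its embryonic to its adult genes, HBM and HBQ1 aside. The beta cluster runs the other way, from its adult to its embryonic genes. In the alpha cluster HBZ is the embryonic gene, HBA2 and HBA1 are the fetal and adult genes, and HBM and HBQ1 encode chains with little known protein product. In the beta cluster HBE1 is embryonic, HBG2 and HBG1 are fetal, and HBD and HBB are adult. Outside the red cell lineage both clusters are mostly silent. Their expression in HT1376 was not measured here. The alpha cluster lies near the end of the short arm of chromosome 16 among broadly expressed genes and is known as a Polycomb target in non-erythroid cells, whereas the beta cluster lies in an array of olfactory receptor genes in late replicating, AT-rich chromatin.

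The 250 bases before the start of 1 member of each cluster are shown because these starts differ in base composition. They do not measure the clusters as a whole, whose composition was not analysed here. HBM and HBD were the 2 members that matched the RefSeq promoter table (GRCh38.p14). The sequences run 5′ to 3′ along the gene's own strand, and capitals mark each CpG dinucleotide. HBM lies on the plus strand at chr16:165728-165977 and HBD on the minus strand at chr11:5234484-5234733.
HBM: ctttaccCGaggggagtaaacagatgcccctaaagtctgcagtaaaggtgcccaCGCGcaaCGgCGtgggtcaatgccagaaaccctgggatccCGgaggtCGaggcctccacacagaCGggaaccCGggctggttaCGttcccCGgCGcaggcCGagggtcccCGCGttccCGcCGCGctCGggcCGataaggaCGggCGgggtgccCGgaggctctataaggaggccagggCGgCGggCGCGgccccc
HBD: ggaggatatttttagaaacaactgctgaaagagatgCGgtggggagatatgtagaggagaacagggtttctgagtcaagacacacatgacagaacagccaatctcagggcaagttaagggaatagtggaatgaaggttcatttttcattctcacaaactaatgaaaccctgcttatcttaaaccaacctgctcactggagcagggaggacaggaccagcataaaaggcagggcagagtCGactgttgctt
The HBM sequence had 27 CpG dinucleotides and 69.2% G+C, and 71.5% of 15811 protein-coding promoters had a lower G+C content. The HBD sequence had 2 CpG dinucleotides and 45.2% G+C, and 12.7% of promoters had a lower G+C content. The ratio of observed to expected CpG was 0.905 for HBM and 0.163 for HBD. The letters GATAA, the core bound by GATA factors, were found once in each on either strand, 63 bases before the start of HBM and 78 before that of HBD, and 16.5% of promoters held them. CCAAT was found once in HBD, at 153 bases, and in 34.4% of promoters. TATAA was found once in HBM, at 33 bases, and in 15.9% of promoters, and CACCC once in HBM, on the other strand at 49 bases, and in 57.9%.

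The first comparison asked whether the globin genes lay under EZH2 and H3K27me3 in bladder cancer cells. A gene was called where an interval came within 2 kb of its start, or within 2 kb of either end of its record for genes whose start side was not given, which were 8 of the 10 members. All 5 alpha genes were called in all 4 lists, and none of the 5 beta genes was called in any. Among all protein-coding genes 27.1% were called for H3K27me3 in DMSO, 19.3% for H3K27me3 in CPI-0209, 51.4% for EZH2 in DMSO and 69.7% for EZH2 in CPI-0209. Calls in all 4 lists were made at 16.9% of genes and calls in none at 24.6%. The 5 alpha genes sat on 3 H3K27me3 domains in DMSO and are not 5 separate events, and the 5 beta genes lie within 1 stretch without intervals.

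**Figure D1:**
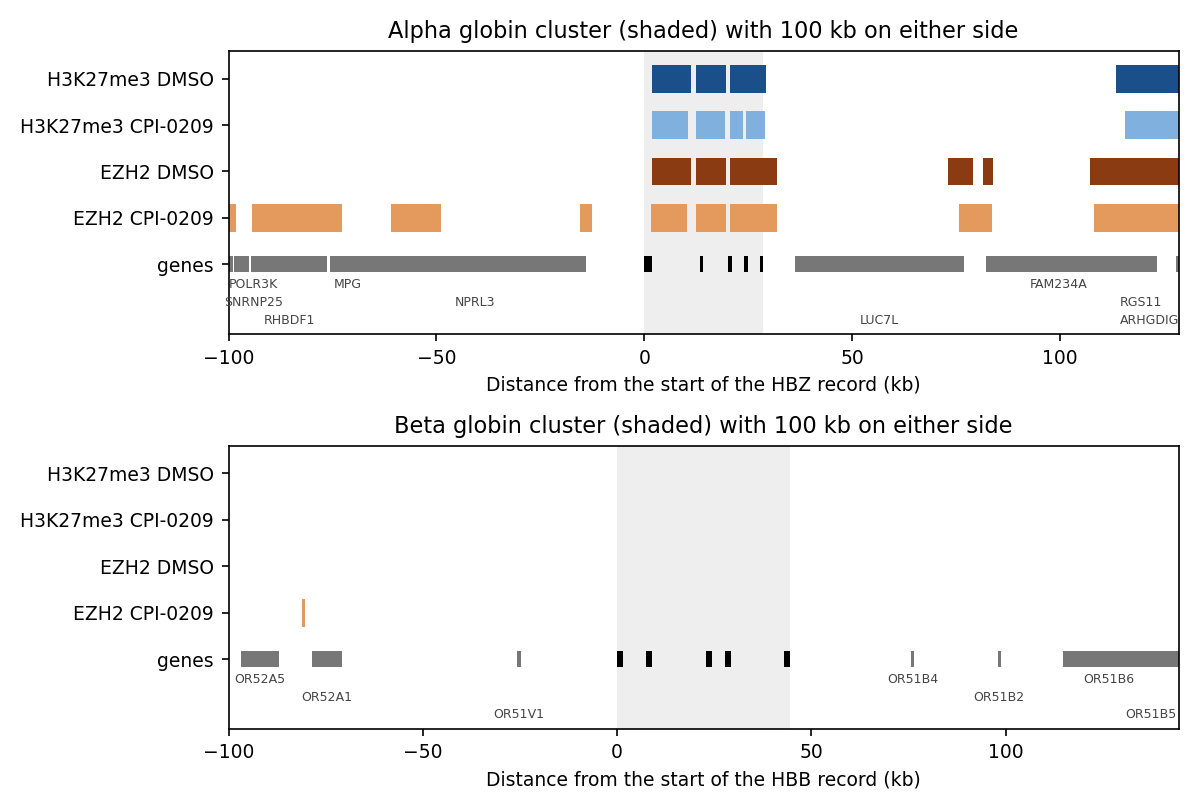
Called intervals of the 4 lists (coloured bars, both passes merged) across the alpha cluster (top) and the beta cluster (bottom), each shaded, with 100 kb on either side. The x axis gives the distance in kb from the start of HBZ or HBB, globin genes are black and neighbouring protein-coding genes grey. Intervals of all 4 lists fill most of the alpha cluster, and the beta cluster is empty in all 4.

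The alpha cluster measured 28.5 kb from HBZ to HBQ1 (chromosome 16, 152644 to 181179). H3K27me3 covered 86.8% of it in DMSO and 81.2% in CPI-0209, and EZH2 covered 86.8% and 84.0%. These shares compare with 14.1%, 6.41%, 11.6% and 14.3% of chromosome 16 as a whole, up to the last gene or interval. When all chromosomes were tiled with windows of the cluster's length, few were covered at least as far as the cluster: 4.36% by H3K27me3 in DMSO, 0.957% by H3K27me3 in CPI-0209, 1.8% by EZH2 in DMSO and 2.59% by EZH2 in CPI-0209. Windows with no interval made up 79.2%, 88.7%, 81.6% and 77.4% in the same order. With both passes together, EZH2 and its mark lay on the same ground. In DMSO 100% of the H3K27me3 length in the cluster was under EZH2, and in CPI-0209 99.1% was. The DMSO value rests on the second EZH2 pass. The first EZH2 pass covered 5.18 kb of the cluster in DMSO, where the first H3K27me3 pass covered 23.8 kb. The CPI-0209 value also crosses passes. There H3K27me3 covered 23 kb in its first pass and 3.6 kb in its second, and EZH2 covered 19 kb and 24 kb. The overlap within single passes was not computed.

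In DMSO the mark formed 3 domains with shared edges in both antibodies. For EZH2 these edges come from the second pass, since the first held only short pieces. The first ran from 154401 to 164000 for H3K27me3 and for EZH2 alike and began inside the upper end of the HBZ record. It held the noncoding LOC107983982, covered over 100% of its record in all 4 lists. This record was at 0% in the second pass of H3K27me3 CPI-0209 and in the first pass of both EZH2 lists. The second ran from 165001 to 172200 in both lists and held HBM and the pseudogene HBAP1. The third began at 173201 in both, inside HBA2, and ended at 182000 for H3K27me3 and at 184600 for EZH2, beyond HBQ1. Between them stood gaps from 164001 to 165000, within the pseudogene HBZP1, and from 172201 to 173200, over the lower end of the HBA2 record. Both gaps recurred in CPI-0209, where the first reached from 163201 to 165000 for H3K27me3 and from 163001 to 165000 for EZH2. In the first pass alone the H3K27me3 gap began at 163001 in DMSO and at 163201 in CPI-0209. HBZP1 was covered over 53.2% of its record in both DMSO lists, 15.8% in H3K27me3 CPI-0209 and 9.58% in EZH2 CPI-0209. The direction depended on the pass. In the first pass alone H3K27me3 covered 9.58% in DMSO and 15.8% in CPI-0209, and EZH2 0.234% in both. In the second pass H3K27me3 covered 53.2% and 0.234%, and EZH2 53.2% and 9.58%.

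**Figure D2:**
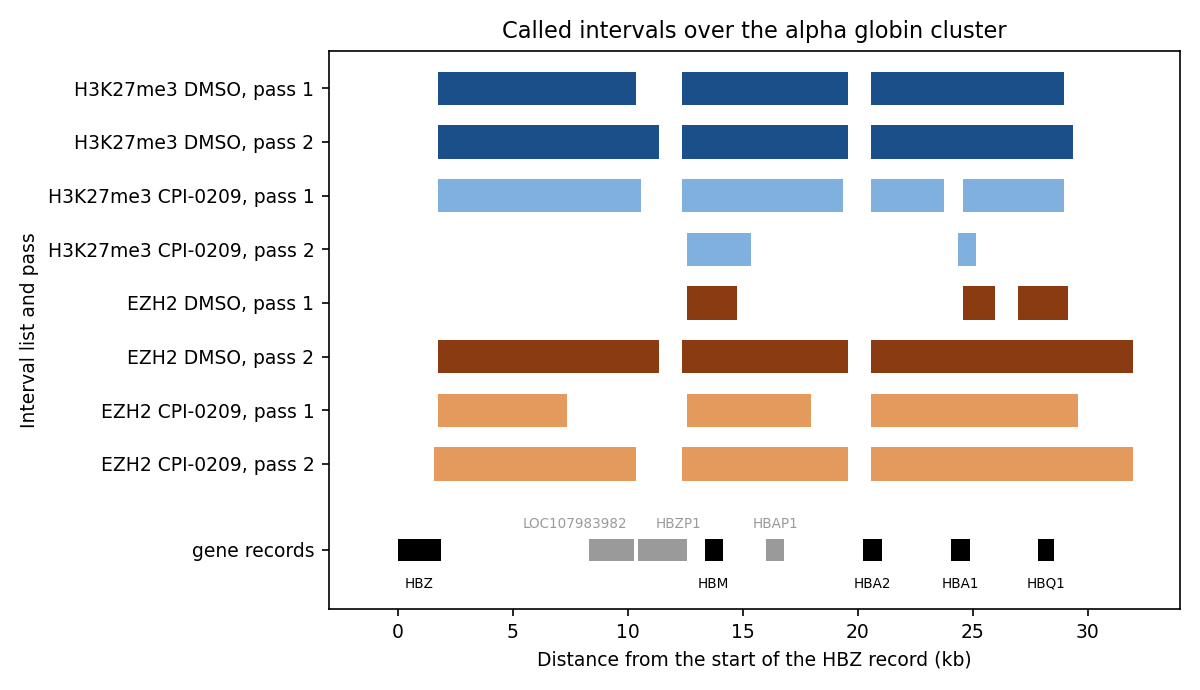
Intervals over the alpha cluster for each list and each of its 2 passes, against the distance in kb from the start of HBZ, with globin genes in black and other records in grey. Domains start at common positions in most passes, and the second pass of H3K27me3 CPI-0209 and the first pass of EZH2 DMSO hold only short pieces, around HBM and around HBA1 and beyond.

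The members differed in how much of each gene lay under the mark. HBZ, the embryonic zeta chain gene (chromosome 16, 152644 to 154503), was called through its upper end: 5.54% of its record was covered in H3K27me3 DMSO, H3K27me3 CPI-0209 and EZH2 DMSO, and 16.3% in EZH2 CPI-0209. Its lower end lay 1.76 kb from the nearest H3K27me3 interval. By these calls the zeta gene sat at the border of the domain, with most of its record uncalled. Whether the uncalled part carried signal below the calling threshold was not tested. HBZ and the pseudogene HBZP1 both held uncalled stretches in all 4 lists. Whether reads from these 2 records could be told apart was not tested. HBM, the mu chain gene (165978 to 166764), was covered over 100% of its record in all 4 lists. It was the only member whose whole record was covered in each of the 8 passes.

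HBA2, the major adult alpha gene (172876 to 173710), was covered over 61.1% of its record in all 4 lists. The uncovered part was the gap at the lower edge of its record, at the same position in each. HBA1, its near-identical copy (176680 to 177522), was covered over 100% in H3K27me3 DMSO, EZH2 DMSO and EZH2 CPI-0209, and over 61.9% in H3K27me3 CPI-0209. In the first pass alone 38.2% of it was covered in H3K27me3 CPI-0209 and in EZH2 DMSO. Over both passes HBA1 was thus the member whose covered share was lower in CPI-0209 than in DMSO for H3K27me3, and the other 4 had equal shares. In CPI-0209 a gap from 176401 to 177000 over the lower end of the HBA1 record split the third domain into pieces of 3.2 kb and 4.6 kb, in place of 8.8 kb in DMSO. HBQ1, the theta chain gene (180459 to 181179), was covered over 100% in all 4 lists. Reads from HBA2 and HBA1, and from HBG2 and HBG1, cannot be told apart over identical bases, and how such reads were placed was not given in the sources used here, so the split between the copies is uncertain.

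**Figure D3:**
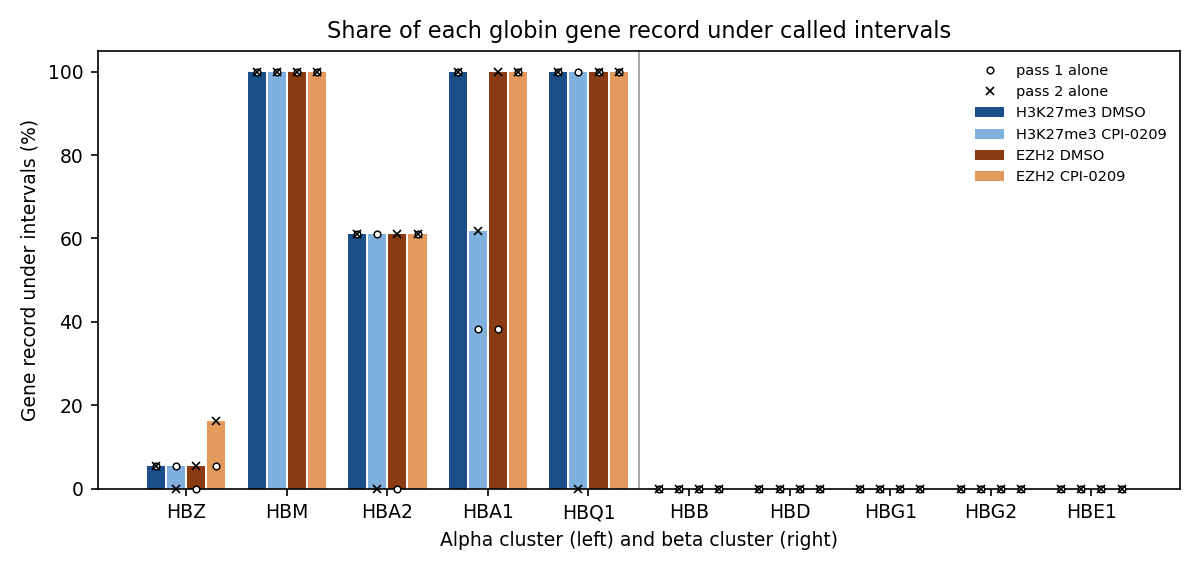
Percent of each gene record under intervals for the 5 alpha and 5 beta genes, by list (bars, both passes together), with the first pass alone as circles and the second alone as crosses. HBM stands at 100% in every pass, HBZ at 16.3% or less, and all beta genes at 0.

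The passes parted at the alpha genes. In the first pass H3K27me3 covered 83.3% of the cluster in DMSO and 80.5% in CPI-0209, and in the second 86.8% and 12.6%. The second pass of H3K27me3 CPI-0209 held 2 intervals here, from 165201 to 168000 over HBM and from 177001 to 177800 over HBA1, so that these 2 of the 5 genes were called in it, where 4.14% of all protein-coding genes were, and the records of HBZ, HBA2 and HBQ1 were at 0%. The other 3 H3K27me3 passes called all 5, against 22.1% and 26.8% of all genes in the first and second pass of DMSO and 19.2% in the first of CPI-0209. For EZH2 the first pass covered 18.1% in DMSO and 66.5% in CPI-0209 and the second 86.8% and 84.0%. The first pass of EZH2 DMSO placed its pieces at 165201 to 167400, 177201 to 178600 and 179601 to 181800, and 3 of the 5 genes, HBM, HBA1 and HBQ1, were called, against 38.3% of all genes in that pass. All 5 were called in the second pass of EZH2 DMSO and in both of EZH2 CPI-0209, against 34.9%, 34.2% and 68.9% of all genes. Both thin passes thus kept intervals at HBM and HBA1.

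The second comparison asked how much of the length called in DMSO at the alpha cluster was also called with the inhibitor. Within the cluster H3K27me3 intervals summed to 24.8 kb with DMSO and to 23.2 kb with CPI-0209, and 93.5% of the DMSO length was covered in CPI-0209. Over chromosome 16 this share was 44.9% and over all chromosomes 35.8%. The 3 domains that held alpha genes kept 91.7%, 97.2% and 88.6% of their length. Among 3961 DMSO domains of 7 to 10 kb, a range set after the alpha domains were seen, 41 (1.04%) kept 88.6% or more, and the median kept 0%. Of those domains 854 had EZH2 over at least 50% of their length in DMSO, as all 3 alpha domains had. These kept a median of 41.9%, and 4.1% of them kept at least the 88.6% of the least retained alpha domain. The alpha domains are counted in these shares, and their own lowest value set the cut-off. All these domain values use both passes merged and were not split by pass. In the second pass of H3K27me3 CPI-0209 no interval lay from 152644 to 165200, where the first domain lies. The 93.5% at the cluster rests on the first pass. There 95.8% was retained within first passes and 14.5% within second passes, against 53.5% and 4.84% over all chromosomes. For EZH2 96.0% of the DMSO length was covered in CPI-0209, against 82.8% over chromosome 16. Within first passes it was 100%, of only 5.18 kb called in DMSO, and within second passes 96.0%. Over all chromosomes these 2 shares were 47.8% and 79.9%. At the level of genes, all 5 alpha genes called for H3K27me3 in DMSO were called in CPI-0209, as were 69.3% of all genes called in DMSO. For EZH2 this share was 95.2%. Counted over all protein-coding genes, H3K27me3 was called at 18.8% in both conditions, at 8.34% in DMSO alone and at 0.469% in CPI-0209 alone. For EZH2 these shares were 49%, 2.47% and 20.8%.

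The beta cluster measured 44.5 kb from HBB to HBE1 (chromosome 11, 5225464 to 5269945) and had 0 intervals in all 4 lists and in all 8 passes. HBB, the adult beta chain gene, lay 547.9 kb from the nearest H3K27me3 interval in DMSO, 1011.5 kb in CPI-0209, 391.7 kb from EZH2 in DMSO and 80.3 kb in CPI-0209. HBD, the delta chain gene, lay 555.2 kb, 1004.1 kb, 384.3 kb and 87.6 kb away in the same order. HBE1, the embryonic epsilon gene at the other end, lay 590.7 kb, 968.7 kb, 348.9 kb and 123.1 kb away. The fetal genes HBG1 and HBG2 fell between HBD and HBE1 in each list. The pseudogene HBBP1 and the noncoding BGLT3, which lie between HBD and HBG1, were likewise uncovered.

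An empty window of this size was common, unlike the filled alpha cluster. Of windows as long as the beta cluster, 75.8% held no H3K27me3 interval in DMSO and 86% none in CPI-0209, and 76.8% and 72% held no EZH2 interval. The stretch without intervals that includes the beta genes holds the whole empty cluster. It is therefore longer than the median stretch of each list by construction, since each median is shorter than the cluster. Between H3K27me3 intervals it spanned 1558.6 kb with DMSO and 2576.4 kb with CPI-0209, where the median of all such stretches was 11.4 kb and 11 kb. Between EZH2 intervals it spanned 1118.4 kb with DMSO and 475 kb with CPI-0209, where the medians were 34 kb and 18.6 kb. In H3K27me3 DMSO 314 of 21610 stretches were longer, and these made up 33.7% of the length of all chromosomes, unsequenced parts included. In EZH2 CPI-0209 1108 of 27350 were longer and made up 49.3% of the length. Of the 62 protein-coding genes inside the H3K27me3 DMSO stretch 47 were olfactory receptors. No call shows that EZH2 or the mark was absent, since depth and the signal below the calling threshold are unknown.

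Neighbouring genes were scored to see how far each pattern reached. Within 100 kb of the alpha cluster 9 protein-coding genes were scored, and 2 were called for H3K27me3 in DMSO and in CPI-0209 (27.1% and 19.3% of all genes were). These were RGS11 and ARHGDIG, on a domain from 266201 to 285400 in DMSO. In CPI-0209 RGS11 was called for H3K27me3 in the first pass only. The neighbours next to the globin genes, NPRL3 at 14.0 kb and LUC7L at 7.81 kb, had no H3K27me3 call in either condition. NPRL3 encodes a regulator of mTORC1 signalling, and its introns are known to hold the alpha globin enhancers. EZH2 was called at 4 of the 9 in DMSO (LUC7L, FAM234A, RGS11 and ARHGDIG) and at all 9 in CPI-0209, where 51.4% and 69.7% of all genes were called. In DMSO only LUC7L was called for EZH2 in both passes. FAM234A was called in the first pass only, and RGS11 and ARHGDIG in the second only. The 5 genes with EZH2 in CPI-0209 alone were POLR3K, SNRNP25, RHBDF1, MPG and NPRL3, all on the HBZ side, and each was called in the second pass only. Among all protein-coding genes 16.6% had EZH2 in CPI-0209 as their only call of the 4 lists, as these 5 had. These EZH2 intervals included 58201 to 80000 over RHBDF1 and the lower end of MPG, 91801 to 103800 within the NPRL3 record and 137201 to 140000 at the start of NPRL3. None of them carried H3K27me3.

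The starts of 2 alpha neighbours and 1 beta neighbour are shown because NPRL3 resembles HBM in CpG content and differs from it in its calls. They are set out as above, with capitals at CpG. NPRL3 is on the minus strand at chr16:138674-138923, LUC7L on the minus strand at chr16:229450-229699 and OR51V1, an olfactory receptor 24.8 kb from HBB, on the minus strand at chr11:5200683-5200932.
NPRL3: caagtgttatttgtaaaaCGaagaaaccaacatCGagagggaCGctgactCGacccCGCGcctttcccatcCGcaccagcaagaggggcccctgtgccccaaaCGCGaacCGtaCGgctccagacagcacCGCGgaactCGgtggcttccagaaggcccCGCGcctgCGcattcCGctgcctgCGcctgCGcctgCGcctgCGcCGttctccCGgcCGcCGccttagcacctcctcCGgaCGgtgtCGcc
LUC7L: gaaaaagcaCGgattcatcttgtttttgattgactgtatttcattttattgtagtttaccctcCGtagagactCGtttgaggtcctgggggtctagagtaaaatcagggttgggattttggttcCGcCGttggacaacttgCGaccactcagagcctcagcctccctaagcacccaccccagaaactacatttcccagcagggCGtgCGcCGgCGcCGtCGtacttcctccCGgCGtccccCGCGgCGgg
OR51V1: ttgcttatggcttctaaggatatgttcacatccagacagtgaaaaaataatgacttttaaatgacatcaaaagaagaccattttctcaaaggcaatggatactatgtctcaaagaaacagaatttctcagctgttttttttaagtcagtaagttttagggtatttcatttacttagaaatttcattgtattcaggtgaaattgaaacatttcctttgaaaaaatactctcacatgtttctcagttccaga
NPRL3 had 29 CpG dinucleotides and 66.4% G+C, close to HBM, and was called for EZH2 in CPI-0209 alone. LUC7L had 17 and 54.4% and was called for EZH2 in both conditions without H3K27me3. OR51V1 had 0 and 30.8% and was called in no list. Of the 7 protein-coding genes within 100 kb of the beta cluster, all olfactory receptors, 1 was called: OR52A1, in EZH2 CPI-0209, through an interval of 0.8 kb from 5144401 to 5145200 in the second pass.

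The HBM and HBD starts were then placed among all promoters, divided into 10 equal groups by G+C content, from 1 (lowest) to 10. HBD fell in group 2 and HBM in group 8. For H3K27me3 in DMSO 25.7% (23.6 to 28.0) of genes in the HBD group and 24.7% (22.6 to 26.9) in the HBM group were called, so these shares overlapped within their 95% exact binomial limits. For H3K27me3 in CPI-0209 they were 12.8% (11.2 to 14.6) and 19.7% (17.8 to 21.8). Across all 10 groups the H3K27me3 DMSO share was lowest in group 1, at 14.3%, and highest in group 10, at 33.5%. For EZH2 the HBD and HBM groups stood further apart, at 31.3% (29.0 to 33.7) and 64.2% (61.8 to 66.6) in DMSO and 38.8% (36.4 to 41.3) and 89.2% (87.5 to 90.7) in CPI-0209. Groups made by the number of CpG dinucleotides gave another picture for H3K27me3 in DMSO. There 23.5% (21.4 to 25.6) were called in group 8, with HBM, and 30.6% (28.3 to 32.9) in group 2, where HBD fell, and these limits do not overlap. Promoters with 2 CpG dinucleotides, as HBD has, were split by ties between groups 1 and 2, and in group 1 17.8% (15.9 to 19.7) were called. For H3K27me3 in CPI-0209 the shares by CpG number were 15.6% in group 2 and 19.1% in group 8. EZH2 calls kept the direction seen with G+C content, at 22.3% in group 2 and 64.8% in group 8 in DMSO and 30.5% and 89.2% in CPI-0209. The limits cover counting error within each library, and genes are not replicates. They treat genes as independent, although neighbouring genes can share a domain, so they may be too narrow. With 1 locus of each kind, base composition and the other differences between the loci cannot be told apart.

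**Figure D4:**
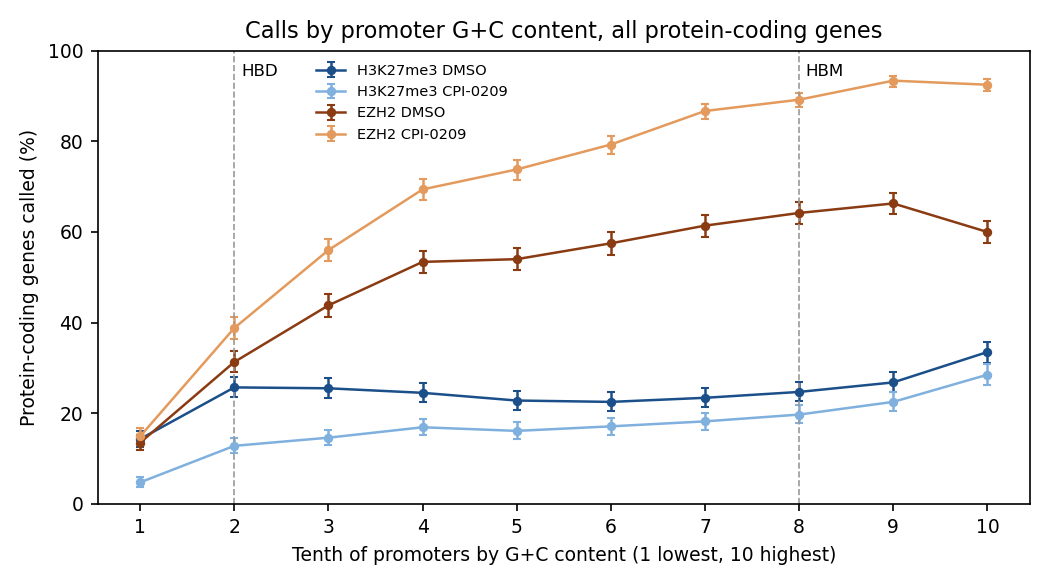
Percent of protein-coding genes called in each list (y axis) by promoter G+C content in 10 groups (x axis), with 95% exact binomial limits as bars and dashed lines at the groups of HBD and HBM. EZH2 calls are more frequent in the HBM group than in the HBD group, and H3K27me3 calls in DMSO are about equally frequent in both.

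Genes that act with the globins in red cells were scored by the same rule, from lists written with earlier results of these data known. Both passes were used together, and these calls were not split by pass. Of 21 erythroid and globin regulators 11 were called for H3K27me3 in DMSO and 7 in CPI-0209 (27.1% and 19.3% of all genes were), and 13 and 17 for EZH2 (51.4% and 69.7% of all genes were). As shares of the list these are 52.4% and 33.3% for H3K27me3 and 61.9% and 81% for EZH2. H3K27me3 was called in both conditions at TAL1, LMO2, MYB and BCL11A among others; TAL1 and LMO2 form a complex with GATA1 at globin enhancers, and BCL11A represses the fetal globin genes. It was called in DMSO alone at GATA1, RUNX1, LYL1 and NFIA. At GATA1, the master factor of red cell genes, it covered 89.7% of the window in DMSO and 0% in CPI-0209. The DMSO coverage was 100% at NFIA but only 7.47% at RUNX1 and 8.57% at LYL1. GATA2, KLF1, LDB1 and NFE2 were among the 10 with none. BCL11A carried H3K27me3 over 100% of its window in DMSO and 48.4% in CPI-0209, with EZH2 in CPI-0209 alone.

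Of 18 genes for red cell products 7 were called for H3K27me3 in DMSO and 5 in CPI-0209 (38.9% and 27.8%, against 27.1% and 19.3% of all genes). EZH2 was called at 8 and 9 of them (44.4% and 50%), against 51.4% and 69.7% of all genes. SLC4A1 (the band 3 anion exchanger), SPTB (beta spectrin), AHSP and AQP1 were called for H3K27me3 in both conditions. AHSP, the chaperone of free alpha globin, is on chromosome 16 (31527900 to 31528803), and its window was covered over 100% in all 4 lists. EPB42, RHCE and KEL were called in DMSO alone, and ERFE, the erythroid hormone erythroferrone, in CPI-0209 alone. Of the other globins NGB, the neuronal globin, was called in all 4 lists, CYGB for EZH2 alone and MB, the muscle globin, in none. Of 9 epithelial markers EPCAM and GATA3 were called for H3K27me3 in both conditions, CDH1, KRT8, KRT18 and KRT19 were among the 7 without it. Those 4 were called for EZH2 in both conditions, as were 7 of the 9 in all, and KRT5 and TP63 were called in no list. The shares of all genes were 27.1% and 19.3% for H3K27me3 and 51.4% and 69.7% for EZH2. Of 5 erythroid markers SLC4A1 and GATA1 were called for H3K27me3 in DMSO and SLC4A1 alone in CPI-0209. Intervals measure no expression, so these calls do not show which cell type the cells resemble.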

How the data were processed

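ChIP-seq was run on HT1376 cells with antibodies against EZH2 and H3K27me3, 1 library per group. The deposited lists hold chromosome, start and end per the file headers, and no other values. The submitters' processing notes name BWA, SICER and the hg38 build, but no settings. Whether the input served as control was not given in the sources used here. Treatment for 4 and for 8 days appears in the labels. Every start and end was checked to lie on a grid of 200 bp. Starts count from 0 in the lists and from 1 in the text.

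Intervals of a list were merged where they overlapped or adjoined. Genes came from the RefSeq table of GRCh38.p14 on the 22 autosomes and the X chromosome. Of its records there, 679 stood out of coordinate order, as those on unplaced or alternate sequences would, and were left out. The start was given by the RefSeq promoter table for 15811 of 19817 protein-coding genes, and for the other 4006 both ends were used. An overlap of at least 1 bp was a call. Promoter composition used the 250 bases before the start. The members and lists were chosen with earlier results of these data known. All members were named, other records inside the clusters, the nearest flanking genes and those whose calls differed, and the first 4 list members per outcome; some members of the list of red cell products are not reported here by name. RGS11, ARHGDIG and FAM234A fall outside this rule and were named after their values were seen, as was the use of the range of domain widths. Functions were tested on simulated intervals. Python 3.11.15, pandas 2.3.3, NumPy 2.4.6 and SciPy 1.17.1 were used. Alternatives changed the window, the overlap, the cluster margin, the list length and, added after the data were seen, the pass of the list.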

Additional observations from a re-analysis of the deposited data

How the results depend on the processing

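The 34 alternative counts of beta genes and the 18 alternative percents of the beta cluster stayed at 0. For alpha genes 29 of 34 alternative counts stayed at 5, or at 4 where at least 50% of the window had to be covered. Over stretches under 2 overlapping intervals, which are those in both passes, 2 alpha genes were called in H3K27me3 CPI-0209 and 3 in EZH2 DMSO, and the cluster was covered over 11.9% and 18.1%, with 66.5% for EZH2 CPI-0209. Retained length was then 14.3% for H3K27me3 and 100% for EZH2. The passes gave the same counts on their own: 2 genes and 12.6% in the second pass of H3K27me3 CPI-0209 (retained 14.5%), 3 genes and 18.1% in the first pass of EZH2 DMSO, and 66.5% in that of EZH2 CPI-0209 (retained 100%). With 50 kb added on either side, H3K27me3 coverage was 19.9% in DMSO and 18.4% in CPI-0209 and EZH2 coverage 26.1% and 26.6%, since the added length is mostly uncovered, and EZH2 retention was 89.3%. Shortening the H3K27me3 DMSO list to the CPI-0209 length keeps only intervals of 33.2 kb and wider, so 0 alpha genes and 0% of the cluster remained by construction. No paired analysis was possible because each group has 1 library. Depth is unknown, so missing calls set no upper limit.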
